A study of Mus musculus with 8 samples.

Results

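A total of 84 genes had a lower level in *Arid1a* KO than in WT Myc-CaP tumors with vehicle. In *Arid1a* KO tumors given JSH-23 they were back near the WT level. They were selected on CPM, the count of a gene per 1000000 counts of its sample. Each had a WT vehicle mean of at least 5 CPM and a higher *Arid1a* KO vehicle sample at or below the lower WT vehicle sample divided by 1.5. Each also had an *Arid1a* KO JSH-23 mean at or above the WT vehicle mean divided by 1.2. Of 39089 genes in the tables, 10266 met the first condition, 274 the first 2, and 84 (30.7% of the 274) all of them, which left 190 genes that were lower in *Arid1a* KO tumors and did not come back. The selection fixed the levels in 3 of the 4 groups, so the fall in *Arid1a* KO tumors and the return are described here without a test. The WT JSH-23 samples were not used in the selection.

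Myc-CaP cells come from a prostate tumor of a mouse that overexpresses *Myc*. The cells carried either an empty control vector (labelled Myc-CaP EV and called WT here) or sgARID1A, a guide RNA against *Arid1a* (*Arid1a* KO). Both were made by lentiviral infection and drug selection, and whether the cells were a pool or a clone is not stated. They grew subcutaneously in 6-week-old male FVB mice. JSH-23, in DMSO diluted in corn oil, was given by gavage every day for 2 weeks from day 16. The labels give the control as corn oil, while the study names its control arms DMSO, so whether the vehicle held DMSO is unsure. EpCAM+ CD45- cells were sorted from the tumors, and RNA-seq was done on 2 samples in each of the 4 groups (WT vehicle, WT JSH-23, *Arid1a* KO vehicle and *Arid1a* KO JSH-23). Nothing in the labels says that the 2 samples of a group came from separate tumors, so the p-values measure only the spread between these samples, which may be technical.

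Total counts ran from 16401581 to 21972231 per sample, and 3 counts, taken as the lowest level told from 0 and covering counting error only, corresponded to between 0.137 and 0.183 CPM. Every one of the 84 genes was far above this, with at least 46 counts in each *Arid1a* KO vehicle sample and 76 in each WT JSH-23 sample. *Arid1a* itself was at 158 and 163 CPM in WT vehicle, 145 and 156 CPM in WT JSH-23 samples. It was at 106 and 109 CPM in *Arid1a* KO vehicle and 89.7 and 91.0 CPM in *Arid1a* KO JSH-23 samples. Its transcript was thus reduced but present in the cells labelled KO. The sort marker *Epcam* was at or near 0 in every sample, with at most 0.199 CPM, and *Krt18* was below 1 CPM. The summed level of 8 epithelial markers was between 333 and 507 CPM, nearly all of it from *Cldn3*, *Krt8* and *Krt19*. The summed levels of 14 leukocyte markers were between 9.65 and 23.2 CPM and those of 9 fibroblast markers between 41.5 and 69.5 CPM. In bulk samples such as these, fewer cells of a type and less RNA per cell cannot be told apart.

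ARID1A is a DNA-binding subunit of the SWI/SNF complex, which moves nucleosomes and keeps enhancers and promoters open. Loss of the subunit is known to lower the transcription of some genes and raise that of others. JSH-23 blocks the entry of p65, the main activating subunit of NF-κB, into the nucleus. NF-κB is best known for switching on genes of inflammation and cell survival.

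The 84 genes covered a wide range of levels, from 5.14 to 2077 CPM in WT vehicle tumors, with a median of 42.6 CPM beside 42.4 CPM for all 10266 genes above the level limit. All but 3 (81 of 84) were protein-coding. Their *Arid1a* KO vehicle mean was between 0.363 and 0.659 of the WT vehicle mean (median 0.581), and 17 genes were down to 0.5 or less of it. With JSH-23 the *Arid1a* KO mean was between 0.834 and 1.83 of the WT vehicle mean (median 1.04). In 50 of the 84 genes it reached or passed the WT vehicle mean, and in 18 it passed it by more than 1.2-fold.

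**Figure D1:**
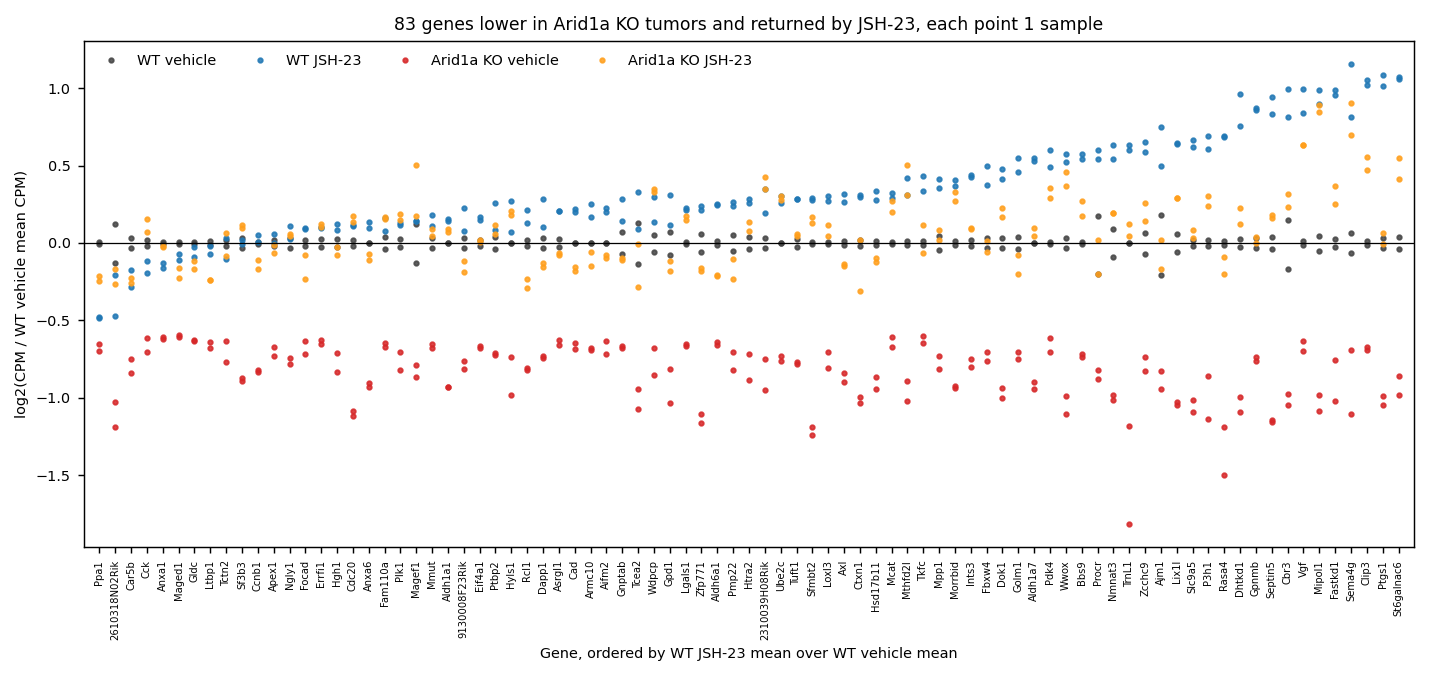
Level of each of 83 of the 84 genes (horizontal axis) in each of the 8 samples (points, coloured by group), as log2 of CPM over the WT vehicle mean. The *Arid1a* KO vehicle points lie below 0 and the *Arid1a* KO JSH-23 points near or above 0 by selection, while the WT JSH-23 points, which were not used in the selection, run from *Ppa1* at 0.716 times the WT vehicle mean to *St6galnac6* at 2.09 times.

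The limits of the selection passed through a continuous range. The 5 genes just inside the 1.5-fold fall were *Tkfc*, *Maged1*, *Cck*, *Gnptab* and *Mcat*, whose lower WT vehicle sample was 1.5009, 1.5028, 1.506, 1.512 and 1.515 times the higher *Arid1a* KO vehicle sample. Just outside it were *Psrc1* (1.4997), *Miip* (1.4995), *Sfxn1* (1.49), *Fads1* (1.49) and *Atic* (1.49), all of which met the other conditions. On the side of the return, *Rcl1*, *Car5b* and *Ltbp1* came in at 0.834, 0.846 and 0.846 of the WT vehicle mean, and *Chn1*, *Otulinl* and *Fah* stayed out at 0.823, 0.822 and 0.822. The same limits on the deposited TPM values (TPM is like CPM but first divides each count by gene length) gave 86 genes, of which 57 were among the 84. CPM scaled with TMM factors gave 124 genes, which held all 84.

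The question left to the WT JSH-23 samples was whether JSH-23 also moved these genes where ARID1A was present. It raised many of them. Of the 84 genes, 19 (22.6%) rose at least 1.5-fold with adjusted p under 0.05 in WT tumors by edgeR's quasi-likelihood test, adjusted by Benjamini-Hochberg over 13921 genes, where 5.55% of all genes tested and 4.16% of genes above 5 CPM rose. None fell by this criterion, where 10.2% of all genes and 7.03% of genes above 5 CPM fell; DESeq2 and limma also called 0 lower, and 4 genes were lower at an unadjusted p under 0.05. Without the fold limit 61 genes rose, 72.6% of the 84, where 28.6% of all genes and 35.1% of genes above 5 CPM rose, and the 4 that fell were 4.76% of the 84, where 27.2% and 29.9% fell. The remaining 19 passed in neither direction. With the biological coefficient of variation set to 0.2 in place of the fitted one, 8 rose.

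The median log2 fold change of the 84 genes with JSH-23 in WT tumors was 0.27, beside -0.0061 for all genes tested and 0.023 for genes above 5 CPM, and single genes ran from -0.47 to 1.08. Both WT JSH-23 samples lay above both WT vehicle samples in 70, where this held for 37.2% of all genes and 42.4% of genes above 5 CPM. They lay below them in 9, where it held for 39.1% and 39.2%. In 5 genes the samples overlapped. The WT vehicle samples are shared between this comparison and the selection, which asked for high WT vehicle values. In 40 of the 84 the WT JSH-23 mean was within 1.2-fold of the WT vehicle mean, in 42 it was more than 1.2-fold above and in 2, *Ppa1* and *2610318N02Rik*, more than 1.2-fold below.

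**Figure D2:**
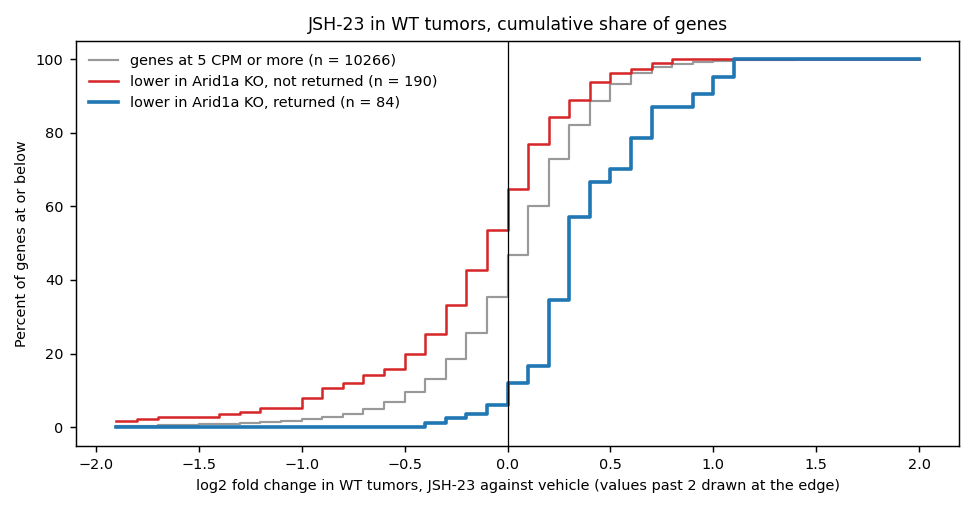
Cumulative percent of genes (vertical axis) at or below each log2 fold change of JSH-23 against vehicle in WT tumors (horizontal axis), for the 84 lowered and returned genes, the 190 lowered and not returned genes and all 10266 genes above 5 CPM. The curve of the 84 lies to the right, with a median of 0.27, and that of the 190 to the left, with a median of -0.12.

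For the 190 genes that were lower in *Arid1a* KO tumors and did not come back, the median log2 fold change with JSH-23 in WT tumors was -0.12. Of these genes, 6 (3.16%) rose and 31 (16.3%) fell at least 1.5-fold with adjusted p under 0.05, and both WT JSH-23 samples were above both WT vehicle samples in 48 (25.3%) and below in 101 (53.2%). Both sets were selected on the same WT vehicle and *Arid1a* KO vehicle samples. They were split by the *Arid1a* KO JSH-23 mean against the WT vehicle mean. The WT vehicle samples thus enter both the split and the fold changes given here for the sets. The difference between the sets was not tested.

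Among the 84 genes the median rise in WT tumors was larger at lower levels. Of the 25 genes between 5 and 20 CPM in WT vehicle tumors, 12 were called higher and the median log2 fold change was 0.58, where 8.37% of the 2629 genes in that range were called and their median was -0.015. Of the 37 genes between 20 and 100 CPM, 6 were called and the median was 0.26, where 3.28% of 5367 genes were called and their median was 0.041. Of the 22 genes at 100 CPM or more, *Gpnmb* alone was called and the median was 0.19, where 1.37% of 2270 genes were called and their median was 0.014.

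With JSH-23 in both genotypes, *Arid1a* KO tumors stayed below WT tumors for part of the 84 genes. A total of 7 (8.33%), *Gpnmb*, *Ptgs1*, *Rasa4*, *Dhtkd1*, *Procr*, *Ajm1* and *Septin5*, had *Arid1a* KO levels at least 1.5-fold below WT with adjusted p under 0.05, where 4.97% of all genes and 3.72% of genes above 5 CPM were. None was higher, where 3.74% and 2.48% were, DESeq2 and limma also called 0, and 10 genes were higher at an unadjusted p under 0.05. Without the fold limit, 47 were lower (background 23.8% of all genes and 28.9% of genes above 5 CPM) and 10 higher (23.2% and 28.6%). The count of 7 rested on the fit, since it was 14 with limma on log2 TPM and 0 with a biological coefficient of variation of 0.2. The median log2 difference of the 84 was -0.17, beside -0.011 for all genes. On the CPM scale both *Arid1a* KO JSH-23 samples lay below both WT JSH-23 samples in 63 genes, where this held for 45.5% of all genes and 50.7% of genes above 5 CPM. They lay above them in 10, where it held for 26.4% and 28.4%. The *Arid1a* KO JSH-23 samples were used in the selection, which set a lower limit for them, so that low values there had been selected against. Of the 7 genes, 6 were also among the 19 that rose in WT tumors, and *Procr* was the exception, with a log2 fold change of 0.58 in WT tumors that was just under the 1.5-fold limit.

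The genes are given below by role. The roles were assigned after their values had been seen and serve only to order the text. With JSH-23 in WT tumors, 28.6% of all genes tested rose and 27.2% fell with adjusted p under 0.05. Of genes above 5 CPM, 35.1% rose and 29.9% fell. By the full criterion (1.5-fold and adjusted p under 0.05), 5.55% of all genes and 4.16% of genes above 5 CPM rose. Of the 84, 72.6% rose with adjusted p under 0.05 and 22.6% by the full criterion. No role was tested against these shares. In the largest group, 21 genes act in aldehyde, amino acid and mitochondrial metabolism. In WT tumors with JSH-23, 18 of the 21 rose with adjusted p under 0.05. Of these 18, 4 (*Fastkd1*, *Cbr3*, *Dhtkd1* and *Nmnat3*) met the full criterion. A fall with adjusted p under 0.05 but short of 1.5-fold was seen in 2 (*Ppa1* and *Car5b*), and *Gldc* did not pass.

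*Aldh1a1* encodes a dehydrogenase that turns retinaldehyde into retinoic acid and marks stem-like cells in several tumors. Its level was 2077 and 2076 CPM (WT) and 1088 and 1088 CPM (*Arid1a* KO) with vehicle. With JSH-23, *Aldh1a1* was at 2314 and 2294 CPM (WT) and 2185 and 2214 CPM (*Arid1a* KO). The *Arid1a* KO vehicle samples were the lowest and stood far from the other 6, which lay close together. In WT tumors JSH-23 raised it slightly (log2 fold change 0.16, SE 0.013, adjusted p = 3.43e-17). *Aldh1a7*, its close paralog, was at 161 and 162 CPM in WT and 86.6 and 83.9 CPM in *Arid1a* KO vehicle samples. Under JSH-23, *Aldh1a7* was at 233 and 236 CPM in WT and 173 and 167 CPM in *Arid1a* KO samples, and its rise in WT tumors was larger (log2 fold change 0.55, SE 0.030, adjusted p = 1.68e-25). With JSH-23, the difference of *Aldh1a1* between the genotypes did not pass (log2 difference 0.010, SE 0.013, adjusted p = 0.558). The fit uses TMM scaling, whereas on the CPM scale both *Arid1a* KO JSH-23 samples lay below both WT JSH-23 samples. In the same fit *Aldh1a7* was lower in *Arid1a* KO tumors (log2 difference -0.39, SE 0.029, adjusted p = 5.4e-19). The longest reference transcripts of the 2 genes share 6.54% of the 50-base stretches of *Aldh1a1* and 7.49% of those of *Aldh1a7*, and their longest identical run is 100 bases, so that a small part of the reads could have been placed on either gene.

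*Aldh1a1*, *Aldh1a7* and *Anxa1* lie next to each other on chromosome 19 (GRCm38, 20373434 to 20727556, 354123 bases), and the 2 other genes tested within 200 kb of them had WT vehicle means under 1 CPM. *Anxa1*, on the minus strand at 20373434 to 20390671, encodes annexin A1, a membrane-binding protein that dampens inflammation. *Aldh1a1* is on the plus strand at 20492583 to 20643463 and *Aldh1a7* on the minus strand at 20692953 to 20727556. The 250 bases before each start site, from RefSeq (GRCm38.p6), are shown because these 3 neighbours fell and returned together; in capitals are the TATA letters (TATAAA), the CCAAT box and the AP-1 motif (TGANTCA), found on either strand.
Anxa1, chr19:20390672-20390921, minus strand: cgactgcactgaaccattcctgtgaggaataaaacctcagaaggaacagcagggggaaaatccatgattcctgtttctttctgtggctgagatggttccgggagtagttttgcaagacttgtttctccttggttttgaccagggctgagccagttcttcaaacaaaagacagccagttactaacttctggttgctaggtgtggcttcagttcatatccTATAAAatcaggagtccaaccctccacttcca
Aldh1a1, chr19:20492333-20492582, plus strand: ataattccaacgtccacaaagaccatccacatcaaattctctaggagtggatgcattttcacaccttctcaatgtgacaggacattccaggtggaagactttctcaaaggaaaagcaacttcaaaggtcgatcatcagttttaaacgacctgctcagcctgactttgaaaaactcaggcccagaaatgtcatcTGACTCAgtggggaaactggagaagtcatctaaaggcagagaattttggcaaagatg
Aldh1a7, chr19:20727557-20727806, minus strand: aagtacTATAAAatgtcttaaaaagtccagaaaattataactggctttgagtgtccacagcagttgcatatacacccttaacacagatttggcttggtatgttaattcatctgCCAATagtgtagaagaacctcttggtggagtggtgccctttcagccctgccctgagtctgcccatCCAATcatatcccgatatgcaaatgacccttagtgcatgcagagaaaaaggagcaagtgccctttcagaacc

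The windows differ. TATAAA begins 32 bases before the start of *Anxa1* and 244 bases before that of *Aldh1a7*. The window of *Aldh1a1* holds neither TATAAA nor a CCAAT box, and its AP-1 motif begins 57 bases before the start. That of *Aldh1a7* holds CCAAT at 137 and 72 bases before the start. All 3 are poor in CpG, with 2, 3 and 1 CpG in order of position, where the median of 11001 tested genes with a window was 15. In windows of 300 bases (250 before and 50 after the start) of all those genes, TATAAA was in 7.71%, the CCAAT box in 39.2% and the AP-1 motif in 5.52%. A match of letters is a description and not a site.

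*Anxa1* was at 1102 and 1109.7 CPM (WT) and 720.2 and 725 CPM (*Arid1a* KO) with vehicle. With JSH-23, *Anxa1* was at 1012 and 990.3 CPM (WT) and 1092 and 1085 CPM (*Arid1a* KO). Here the WT JSH-23 samples lay below both WT vehicle samples and above the *Arid1a* KO vehicle samples, with a fall in WT tumors that passed the adjusted p but was small (log2 fold change -0.13, SE 0.016, adjusted p = 4.55e-11).

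Several of the metabolic genes break down amino acids in mitochondria. *Dhtkd1*, a dehydrogenase subunit of lysine and tryptophan breakdown, was at 14.2 and 14.6 CPM in WT and 7.23 and 6.78 CPM in *Arid1a* KO vehicle samples. Under JSH-23, *Dhtkd1* was at 24.3 and 28.05 CPM in WT and 16.8 and 15.7 CPM in *Arid1a* KO samples. Its WT JSH-23 samples were the highest of the 8 (log2 fold change 0.87, SE 0.096, adjusted p = 3.63e-12). *Aldh6a1*, of valine breakdown, and *Mmut*, the methylmalonyl-CoA mutase further down the same route, fell to 0.637 and 0.630 of the WT level in *Arid1a* KO tumors and returned to 0.865 and 1.05 of it. In WT tumors their log2 fold changes with JSH-23 were 0.26 and 0.16, both with adjusted p under 0.05. *Gldc*, the glycine decarboxylase of the glycine cleavage system, was at 321 and 324 CPM (WT) and 209 and 208 CPM (*Arid1a* KO) with vehicle. With JSH-23, *Gldc* was at 303 and 317 CPM (WT) and 287 and 298 CPM (*Arid1a* KO), and JSH-23 left it within the spread in WT tumors (log2 fold change -0.046, SE 0.025, adjusted p = 0.120).

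*Fastkd1*, which acts on mitochondrial RNA, was at 17.3 and 16.7 CPM in WT and 10.1 and 8.37 CPM in *Arid1a* KO vehicle samples. Under JSH-23, *Fastkd1* was at 33.7 and 32.98 CPM in WT and 20.3 and 21.9 CPM in *Arid1a* KO samples. JSH-23 in WT tumors took it to 1.96 times the vehicle mean (log2 fold change 0.98, SE 0.087, adjusted p = 8.36e-16), past the level in *Arid1a* KO JSH-23 tumors. *Nmnat3*, a mitochondrial enzyme of NAD synthesis, reached 1.504 times (log2 fold change 0.60, SE 0.041, adjusted p = 5.19e-21). *Cbr3*, a carbonyl reductase, was at 5.71 and 4.58 CPM (WT) and 2.62 and 2.49 CPM (*Arid1a* KO) with vehicle. With JSH-23, *Cbr3* was at 9.05 and 10.2 CPM (WT) and 6.41 and 6.05 CPM (*Arid1a* KO). Its WT JSH-23 mean was 1.88 times the vehicle mean (log2 fold change 0.91, SE 0.15, adjusted p = 5.57e-07). *Aifm2* encodes the ubiquinone reductase that protects membranes from lipid peroxidation and *Pdk4* a kinase that shuts off pyruvate dehydrogenase. Their WT log2 fold changes were 0.22 and 0.56, both with adjusted p under 0.05 and below the fold limit.

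*Ppa1*, the cytosolic inorganic pyrophosphatase, went the other way in WT tumors. It was at 188 and 191 CPM in WT and 121 and 117 CPM in *Arid1a* KO vehicle samples. Under JSH-23, *Ppa1* was at 136 and 135 CPM in WT and 164 and 159.8 CPM in *Arid1a* KO samples. Its WT JSH-23 samples lay below both WT vehicle and both *Arid1a* KO JSH-23 samples, nearer to the *Arid1a* KO vehicle than to the WT vehicle level, with the largest fall of the 84 genes on the log2 scale (log2 fold change -0.47, SE 0.032, adjusted p = 7.92e-21). *Car5b*, a mitochondrial carbonic anhydrase, also fell (log2 fold change -0.22, SE 0.068, adjusted p = 0.00499), at 0.854 of the WT vehicle mean. *Ppa1* and *Aifm2* are neighbours on chromosome 10 (61648621 to 61739260). None of the 5 other genes tested within 200 kb met the criterion for a fall in *Arid1a* KO vehicle tumors.

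**Figure D3:**
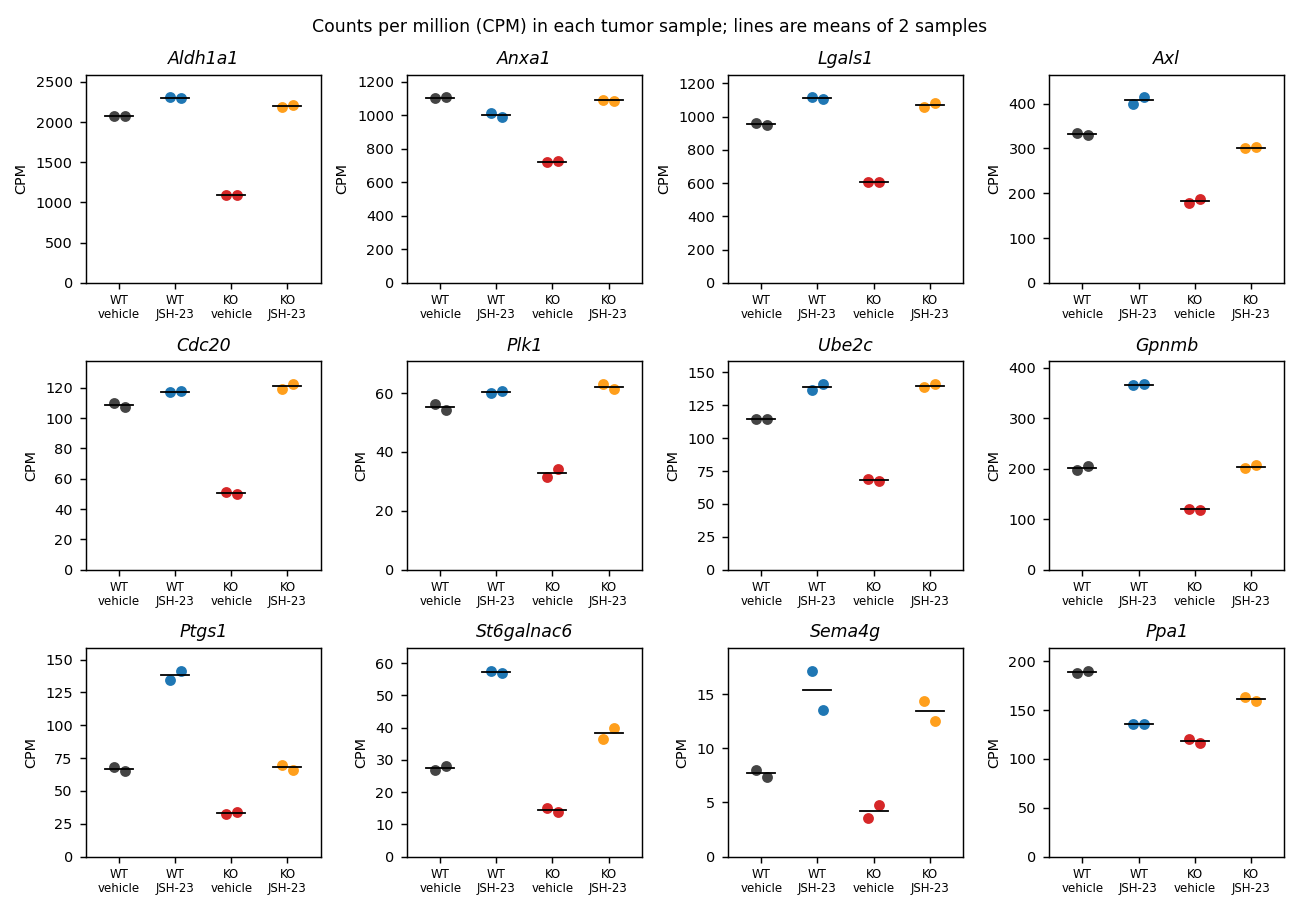
CPM of 12 of the 84 genes (vertical axes, from 0) in each sample of the 4 groups, with lines at the mean of 2 samples. Rows show *Aldh1a1*, *Anxa1*, *Lgals1* and *Axl*, then the mitotic genes *Cdc20*, *Plk1* and *Ube2c* with *Gpnmb*, and last *Ptgs1*, *St6galnac6* and *Sema4g*, which rise in WT tumors with JSH-23, beside *Ppa1*, which falls there.

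A group of 5 genes acts in mitosis, and 4 of them drive the passage through it. *Cdc20* encodes an activator of the anaphase-promoting complex, *Ube2c* the ubiquitin-conjugating enzyme that works with that complex, *Ccnb1* cyclin B1 and *Plk1* a mitotic kinase, while *Fam110a* encodes a spindle-associated protein. *Cdc20* was at 110.1 and 107 CPM (WT) and 51.3 and 50.2 CPM (*Arid1a* KO) with vehicle. With JSH-23, *Cdc20* was at 117 and 118 CPM (WT) and 119 and 123 CPM (*Arid1a* KO). *Ube2c* was at 114 and 115 CPM in WT and 69.1 and 67.4 CPM in *Arid1a* KO vehicle samples. Under JSH-23, *Ube2c* was at 137 and 141 CPM in WT and 139 and 141 CPM in *Arid1a* KO samples. *Plk1* was at 56.5 and 54.3 CPM (WT) and 31.4 and 34.1 CPM (*Arid1a* KO) with vehicle. With JSH-23, *Plk1* was at 59.97 and 60.6 CPM (WT) and 63.2 and 61.3 CPM (*Arid1a* KO). In each of these the *Arid1a* KO vehicle samples were the lowest and the JSH-23 samples of both genotypes the highest. *Ccnb1* was at 99.8 and 99.1 CPM in WT and 55.8 and 56.2 CPM in *Arid1a* KO vehicle samples. Under JSH-23, *Ccnb1* was at 99.8 and 103 CPM in WT and 92.1 and 88.5 CPM in *Arid1a* KO samples, where the *Arid1a* KO JSH-23 samples stopped below both WT groups.

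None of the 5 met the 1.5-fold criterion in WT tumors, and 3 passed the adjusted p. *Ube2c* rose most (log2 fold change 0.29, SE 0.037, adjusted p = 2.91e-10), followed by *Plk1* (log2 fold change 0.13, SE 0.055, adjusted p = 0.0366) and *Cdc20* (log2 fold change 0.12, SE 0.039, adjusted p = 0.00581), while *Ccnb1* (log2 fold change 0.037, SE 0.041, adjusted p = 0.457) and *Fam110a* (log2 fold change 0.13, SE 0.097, adjusted p = 0.251) did not pass. *Ccnb1* did not keep its direction on the TPM scale.

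Of 42 genes on a cell cycle list, 41 were tested. Over all 13921 genes tested, 5.16% were called lower and 7.48% higher in *Arid1a* KO vehicle tumors, and 9.1% higher and 16.9% lower with JSH-23 in *Arid1a* KO tumors. With JSH-23 in WT tumors 5.55% were called higher and 10.2% lower. In *Arid1a* KO vehicle tumors 8 of the 41 were higher and 3 lower by the criterion, and the 3 lower ones were *Cdc20*, *Ccnb1* and *Plk1*, the members of the list among the 84 genes; the list median was 0.18 on the log2 scale. The higher ones are mostly genes of the G1 to S transition and of replication. With JSH-23 in WT tumors 9 of the 41 fell and 1 rose (median -0.15), and none of the 9 was among the 84. With JSH-23 in *Arid1a* KO tumors 7 rose and 12 fell (median -0.0033). With a fall below the fold limit, 5 other genes of the list, which act in mitosis or, for *Top2a*, in the untangling of DNA, also fell in *Arid1a* KO vehicle tumors and rose with JSH-23 in *Arid1a* KO tumors, each with adjusted p under 0.05. They are named after their values had been seen. The 2 log2 fold changes were -0.54 and 0.85 for *Cenpf*, -0.43 and 0.73 for *Bub1b*, -0.42 and 0.97 for *Aurka*, -0.24 and 0.51 for *Ccnb2*, and -0.047 and 0.48 for *Top2a*. The *Arid1a* KO vehicle samples are shared by these 2 comparisons. Other genes of the list with a part in mitosis did not fall in *Arid1a* KO vehicle tumors. *Aurkb*, *Bub1*, *Ccna2* and *Mki67* were higher there (log2 fold changes 0.42, 0.18, 0.11 and 0.10, each with adjusted p under 0.05). *Cdk1*, *Cenpe*, *Kif11*, *Kif23* and *Tpx2* did not pass in either direction there.

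**Figure D4:**
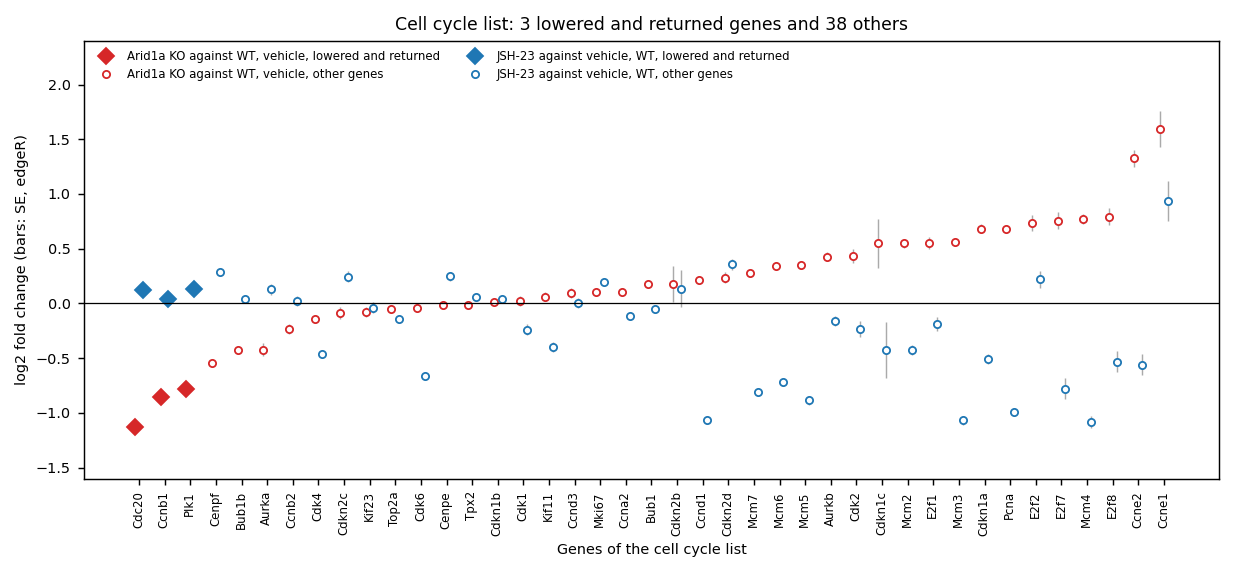
log2 fold change (vertical axis, bars are SE from edgeR) of each tested gene of the cell cycle list (horizontal axis) in *Arid1a* KO against WT tumors with vehicle and with JSH-23 against vehicle in WT tumors. *Cdc20*, *Ccnb1* and *Plk1* (diamonds) are the lowest of the 41 in the first comparison and lie between 0.037 and 0.13 in the second. The replication genes *Mcm2* to *Mcm7* and *Pcna* lie between -1.08 and -0.42 in the second comparison. *Ccne1*, at the right end, and *E2f2* lie above 0 there, at 0.94 and 0.22.

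The promoters of the 4 mitotic genes with a known part in mitotic entry or exit are shown, since genes of this phase are known to share CCAAT boxes and a cell cycle gene homology region (CHR) near their starts. The CHR was searched as TTTGAA, and in a variant form as TTTAAA, letters that were added after the values had been seen. The 250 bases before each start site are from RefSeq (GRCm38.p6), with CCAAT and both forms of the CHR on either strand in capitals.
Cdc20, chr4:118437344-118437593, minus strand: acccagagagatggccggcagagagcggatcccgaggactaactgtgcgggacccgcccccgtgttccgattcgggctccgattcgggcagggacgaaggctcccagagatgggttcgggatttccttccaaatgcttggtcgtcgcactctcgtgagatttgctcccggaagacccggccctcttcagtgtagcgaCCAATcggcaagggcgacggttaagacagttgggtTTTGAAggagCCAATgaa
Ube2c, chr2:164769679-164769928, plus strand: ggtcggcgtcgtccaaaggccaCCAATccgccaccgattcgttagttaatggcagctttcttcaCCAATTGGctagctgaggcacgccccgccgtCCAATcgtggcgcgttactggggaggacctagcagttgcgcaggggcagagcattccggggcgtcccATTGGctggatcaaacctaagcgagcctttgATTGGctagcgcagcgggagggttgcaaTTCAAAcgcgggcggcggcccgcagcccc
Plk1, chr7:122159185-122159434, plus strand: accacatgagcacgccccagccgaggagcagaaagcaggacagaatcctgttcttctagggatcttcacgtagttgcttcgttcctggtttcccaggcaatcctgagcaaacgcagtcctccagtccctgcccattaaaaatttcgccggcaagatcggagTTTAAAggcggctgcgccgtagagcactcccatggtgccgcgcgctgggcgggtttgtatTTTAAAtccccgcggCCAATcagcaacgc
Ccnb1, chr13:100786487-100786736, minus strand: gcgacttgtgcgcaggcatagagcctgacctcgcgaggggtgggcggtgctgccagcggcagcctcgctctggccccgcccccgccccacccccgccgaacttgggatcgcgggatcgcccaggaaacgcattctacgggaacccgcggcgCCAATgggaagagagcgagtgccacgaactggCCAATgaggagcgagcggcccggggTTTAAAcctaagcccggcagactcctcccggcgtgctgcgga

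All 4 windows hold the letters of CCAAT and of a form of the CHR. Here too a match of letters is a description and not a site. *Cdc20* has the CHR letters 18 bases before the start, between CCAAT at 53 and 8 bases. *Ccnb1* has the CHR variant 42 bases before the start, behind CCAAT at 99 and 67 bases. *Ube2c* has 6 matches to CCAAT, 2 of which overlap, and the CHR on the opposite strand 29 bases before the start. *Plk1* has the variant at 89 and 29 bases and CCAAT at 14 bases, and a CHR begins at base 31 after the start, outside the bases shown. The window of *Fam110a*, the remaining mitotic gene, holds CCAAT and neither form of the CHR. CCAAT with either form is also in the 300-base windows of *2610318N02Rik*, *Eif4a1*, *Hyls1*, *Ltbp1*, *Pmp22*, *Sf3b3* and *Wdpcp*, which were not placed among the mitotic genes. The windows of *Aldh1a1* and *Anxa1* printed above also hold a form of the CHR, which is not in capitals there. Of the 11001 tested genes with a 300-base window, 39.2% hold CCAAT, 19.8% either form of the CHR, and 8.27% CCAAT with either form. The NF-κB letters GGGANNTTC were in those of *Plk1* and *Apex1* alone among the 65 windows at hand, and in 3.56% of all windows. Windows were at hand for 65 of the 84 genes (77.4%), under the 80% set as the least for a comparison, so no share over the 84 is read against the background.

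Cilium and centriole genes numbered 4, and 1 of them passed the adjusted p in WT tumors. *Bbs9*, a subunit of the BBSome that carries cargo into cilia, was at 51.8 and 51.4 CPM (WT) and 31.04 and 31.4 CPM (*Arid1a* KO) with vehicle. With JSH-23, *Bbs9* was at 76.8 and 75.3 CPM (WT) and 58.1 and 62.4 CPM (*Arid1a* KO) (log2 fold change 0.57, SE 0.053, adjusted p = 7.1e-15). Its WT JSH-23 samples were the highest. *Hyls1*, a centriole protein, *Tctn2*, of the transition zone, and *Wdpcp*, needed to build cilia, had log2 fold changes of 0.19, -0.025 and 0.22 that did not pass.

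Membrane, adhesion and signaling genes formed a group of 11, of which 9 rose in WT tumors with adjusted p under 0.05. Of these 9, 3 (*Gpnmb*, *Rasa4* and *Sema4g*) met the full criterion. In 1 gene (*Anxa1*) the level fell with adjusted p under 0.05 but short of 1.5-fold. *Lgals1*, which encodes galectin-1, a secreted lectin that binds glycans on T cells and matrix, was at 960.2 and 952 CPM in WT and 608 and 604 CPM in *Arid1a* KO vehicle samples. Under JSH-23, *Lgals1* was at 1119 and 1106 CPM in WT and 1058 and 1081 CPM in *Arid1a* KO samples. The rise in WT tumors was small but larger than the spread (log2 fold change 0.23, SE 0.016, adjusted p = 5.63e-20), and with JSH-23 the difference between the genotypes did not pass (log2 difference 0.020 with TMM scaling, adjusted p = 0.325). On the CPM scale both *Arid1a* KO JSH-23 samples lay below both WT JSH-23 samples. *Axl*, a receptor tyrosine kinase for GAS6, was at 335 and 331 CPM (WT) and 179 and 186 CPM (*Arid1a* KO) with vehicle. With JSH-23, *Axl* was at 399.8 and 415 CPM (WT) and 300.2 and 303 CPM (*Arid1a* KO). JSH-23 raised it in WT tumors (log2 fold change 0.30, SE 0.024, adjusted p = 1.04e-17), and with JSH-23 *Arid1a* KO tumors stayed below WT tumors (log2 difference -0.36, SE 0.024, adjusted p = 2.63e-21).

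*Errfi1*, an inhibitor of the EGF receptor that growth factors induce, was at 432 and 419 CPM in WT and 276 and 271 CPM in *Arid1a* KO vehicle samples. Under JSH-23, *Errfi1* was at 455 and 458 CPM in WT and 463 and 456 CPM in *Arid1a* KO samples, with the *Arid1a* KO JSH-23 and WT JSH-23 samples overlapping. *Gpnmb*, a glycoprotein of melanosomes, macrophages and several tumors, was at 197 and 206 CPM (WT) and 121 and 119 CPM (*Arid1a* KO) with vehicle. With JSH-23, *Gpnmb* was at 365 and 369 CPM (WT) and 202 and 207 CPM (*Arid1a* KO). The WT JSH-23 samples stood alone at the top (log2 fold change 0.88, SE 0.027, adjusted p = 5.05e-40), and the *Arid1a* KO JSH-23 samples lay at the WT vehicle level (log2 difference -0.77, SE 0.026, adjusted p = 3.01e-37). The log2 difference between the genotypes was also -0.77 with vehicle, and the log2 fold change with JSH-23 in *Arid1a* KO tumors was also 0.88. *Gpnmb* is also a macrophage gene. The leukocyte marker sums were 19.9 and 21.1 CPM in WT vehicle and between 10.2 and 19.4 CPM in WT JSH-23 samples, and their part in the values of *Gpnmb* was not tested.

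*Rasa4*, a calcium-regulated GTPase-activating protein for RAS, was the gene with the 2nd deepest fall, at 24.7 and 24.3 CPM in WT and 10.8 and 8.67 CPM in *Arid1a* KO vehicle samples. Under JSH-23, *Rasa4* was at 39.6 and 39.3 CPM in WT and 21.3 and 23.03 CPM in *Arid1a* KO samples. Its WT JSH-23 samples were above all others (log2 fold change 0.70, SE 0.079, adjusted p = 7.47e-12; with JSH-23, *Arid1a* KO against WT, log2 difference -0.75, SE 0.077, adjusted p = 2.98e-13). *Sema4g*, a semaphorin, was at 8.05 and 7.38 CPM (WT) and 3.59 and 4.78 CPM (*Arid1a* KO) with vehicle. With JSH-23, *Sema4g* was at 17.2 and 13.5 CPM (WT) and 14.4 and 12.5 CPM (*Arid1a* KO). JSH-23 took it past the WT vehicle level in both genotypes (log2 fold change 1.01, SE 0.13, adjusted p = 4.11e-10), and the genotypes overlapped with JSH-23. *Dok1*, an adaptor that restrains signaling by tyrosine kinases, rose in WT tumors with adjusted p alone (log2 fold change 0.45, SE 0.043, adjusted p = 1.3e-14). It lies with *Loxl3*, a lysyl oxidase of collagen, and *Htra2*, a mitochondrial protease, within 23640 bases on chromosome 6 (83030932 to 83054571), where the 3' parts of *Loxl3* (plus strand) and *Htra2* (minus strand) overlap. Counting was described as strand-specific. Among 16 other genes tested within 200 kb, 2 met the criterion for a fall in *Arid1a* KO vehicle tumors.

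Matrix, junction and cytoskeleton genes numbered 9, and 5 of them (*Clip3*, *Septin5*, *P3h1*, *Lix1l* and *Ajm1*) rose in WT tumors by the full criterion, with a median log2 fold change of 0.64 for the 9. *Clip3*, a microtubule-associated linker protein, was at 13.7 and 13.9 CPM in WT and 8.66 and 8.57 CPM in *Arid1a* KO vehicle samples. Under JSH-23, *Clip3* was at 27.99 and 28.7 CPM in WT and 20.3 and 19.2 CPM in *Arid1a* KO samples (log2 fold change 1.05, SE 0.093, adjusted p = 7.22e-16). *Septin5*, a septin that controls exocytosis, was at 7.75 and 7.32 CPM (WT) and 3.42 and 3.39 CPM (*Arid1a* KO) with vehicle. With JSH-23, *Septin5* was at 14.4 and 13.4 CPM (WT) and 8.42 and 8.56 CPM (*Arid1a* KO) (log2 fold change 0.90, SE 0.13, adjusted p = 6.4e-09). In both, the WT JSH-23 samples were the highest, with the *Arid1a* KO JSH-23 samples between them and the WT vehicle samples. *P3h1*, which hydroxylates prolines of collagen, had a log2 fold change of 0.66 (SE 0.097). *Ltbp1*, which holds latent TGF-beta in the matrix, was at 543 and 535 CPM in WT and 337 and 346 CPM in *Arid1a* KO vehicle samples. Under JSH-23, *Ltbp1* was at 531 and 512 CPM in WT and 457 and 456 CPM in *Arid1a* KO samples, with WT JSH-23 samples just below the WT vehicle samples (log2 fold change -0.037, SE 0.021, adjusted p = 0.124). Fibroblast marker sums were 62.5 and 68.7 CPM in WT vehicle, 63.5 and 65.3 CPM in WT JSH-23, 69.0 and 69.5 CPM in *Arid1a* KO vehicle and 41.5 and 43.6 CPM in *Arid1a* KO JSH-23 samples, and their part in the values of these genes was not tested.

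Secretory pathway, glycan and lipid genes numbered 7, of which 3 rose by the full criterion. *St6galnac6*, a sialyltransferase that finishes gangliosides and O-glycans, was at 26.7 and 28.1 CPM (WT) and 15.1 and 13.9 CPM (*Arid1a* KO) with vehicle. With JSH-23, *St6galnac6* was at 57.7 and 57.01 CPM (WT) and 36.5 and 40.1 CPM (*Arid1a* KO). It had the largest rise in WT tumors of the 84 (log2 fold change 1.08, SE 0.069, adjusted p = 2.13e-22), to 2.09 times the vehicle mean, and its *Arid1a* KO JSH-23 samples were also above WT vehicle. *Ptgs1*, the constitutive cyclooxygenase that starts prostaglandin synthesis, was at 68.1 and 65.2 CPM in WT and 32.3 and 33.5 CPM in *Arid1a* KO vehicle samples. Under JSH-23, *Ptgs1* was at 135 and 142 CPM in WT and 69.7 and 66.2 CPM in *Arid1a* KO samples. It rose to 2.07 times in WT tumors (log2 fold change 1.06, SE 0.044, adjusted p = 2.36e-32) and only to the WT vehicle level in *Arid1a* KO tumors (log2 difference -0.95, SE 0.042, adjusted p = 1.63e-30), the widest gap between the genotypes with JSH-23 among the 84.

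*Slc9a5*, a sodium-proton exchanger, was at 37.7 and 36.7 CPM (WT) and 18.5 and 17.5 CPM (*Arid1a* KO) with vehicle. With JSH-23, *Slc9a5* was at 59.1 and 57.1 CPM (WT) and 39.5 and 38.05 CPM (*Arid1a* KO) (log2 fold change 0.65, SE 0.062, adjusted p = 1.46e-14). *Golm1* (Golgi membrane), *Gnptab* (mannose-6-phosphate tagging of lysosomal enzymes) and *Ngly1* (removal of glycans from misfolded proteins) had WT log2 fold changes of 0.51, 0.22 and 0.079, of which *Ngly1* did not pass.

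Of 3 genes of secreted peptides and neuronal proteins, *Vgf*, a precursor of neuropeptides, was at 13.5 and 13.3 CPM in WT and 8.26 and 8.62 CPM in *Arid1a* KO vehicle samples. Under JSH-23, *Vgf* was at 23.9 and 26.6 CPM in WT and 20.8 and 20.8 CPM in *Arid1a* KO samples and rose by the full criterion in WT tumors (log2 fold change 0.92, SE 0.096, adjusted p = 3.83e-13). *Cck*, the precursor of cholecystokinin, was at 30.7 and 29.9 CPM (WT) and 18.6 and 19.8 CPM (*Arid1a* KO) with vehicle. With JSH-23, *Cck* was at 27.9 and 26.5 CPM (WT) and 31.9 and 33.8 CPM (*Arid1a* KO) and had lower WT JSH-23 than WT vehicle samples without passing (log2 fold change -0.15, SE 0.078, adjusted p = 0.105). *Ctxn1*, a neuronal membrane protein, had a log2 fold change of 0.31. The summed level of 8 neuron and Schwann cell markers was 1.08 and 1.67 CPM in WT vehicle samples and 1.46 and 15.7 CPM in WT JSH-23 samples, while *Vgf* was at 23.9 and 26.6 CPM in the latter pair; the part of these cells in the values of *Vgf* was not tested.

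RNA, translation and nucleotide genes numbered 11, of which 6 rose in WT tumors with adjusted p under 0.05 and 5 did not pass. Of the 6, 2 (*Zcchc9* and *TrnL1*) met the full criterion. *Cad*, the enzyme that begins pyrimidine synthesis, was at 990.0 and 991 CPM in WT and 618 and 633 CPM in *Arid1a* KO vehicle samples. Under JSH-23, *Cad* was at 1140.1 and 1152 CPM in WT and 874 and 889.9 CPM in *Arid1a* KO samples, with WT JSH-23 samples highest (log2 fold change 0.22, SE 0.017, adjusted p = 6.56e-19). *Eif4a1*, the RNA helicase of cap-dependent translation, was at 653 and 636 CPM (WT) and 403 and 406 CPM (*Arid1a* KO) with vehicle. With JSH-23, *Eif4a1* was at 716 and 725 CPM (WT) and 655 and 649 CPM (*Arid1a* KO), and all 6 samples outside *Arid1a* KO vehicle lay between 636 and 725 CPM (log2 fold change 0.17, SE 0.019, adjusted p = 3.11e-12). *Sf3b3*, a splicing factor subunit, was at 294 and 281 CPM in WT and 155 and 157 CPM in *Arid1a* KO vehicle samples. Under JSH-23, *Sf3b3* was at 291 and 286 CPM in WT and 308 and 311 CPM in *Arid1a* KO samples and stayed within the spread in WT tumors (log2 fold change 0.017, SE 0.026, adjusted p = 0.589). *TrnL1*, a mitochondrial leucine transfer RNA that such libraries capture only in part, had the deepest fall of the 84, at 9.31 and 9.28 CPM (WT) and 4.10 and 2.64 CPM (*Arid1a* KO) with vehicle. With JSH-23, *TrnL1* was at 14.1 and 14.4 CPM (WT) and 10.1 and 9.60 CPM (*Arid1a* KO) (log2 fold change 0.63, SE 0.12, adjusted p = 1.47e-05). *Eif4a1* has processed copies elsewhere in the genome, so the placement of its reads is less sure.

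The last 13 genes include regulators of chromatin and transcription, candidates for tumor suppression and genes without an assured role; 1 rose by the full criterion in WT tumors. *Sfmbt2*, a Polycomb group protein, was at 124 and 123 CPM in WT and 54.2 and 52.3 CPM in *Arid1a* KO vehicle samples. Under JSH-23, *Sfmbt2* was at 151 and 149.6 CPM in WT and 135 and 138 CPM in *Arid1a* KO samples (log2 fold change 0.30, SE 0.036, adjusted p = 6.11e-11). The zinc finger gene *Zfp771* was at 33.2 and 35.9 CPM (WT) and 15.4 and 16.1 CPM (*Arid1a* KO) with vehicle. With JSH-23, *Zfp771* was at 40.7 and 40.1 CPM (WT) and 30.5 and 30.9 CPM (*Arid1a* KO) (log2 fold change 0.23, SE 0.070, adjusted p = 0.00307). *Maged1*, a MAGE family adaptor, was at 415 and 419 CPM in WT and 273 and 276 CPM in *Arid1a* KO vehicle samples. Under JSH-23, *Maged1* was at 387 and 396 CPM in WT and 357 and 373 CPM in *Arid1a* KO samples, with a small fall in WT tumors (log2 fold change -0.081, SE 0.023, adjusted p = 0.00211). *Wwox*, an oxidoreductase gene at a common fragile site, rose 1.46-fold, just under the fold limit (log2 fold change 0.56, SE 0.11, adjusted p = 6.58e-06). *Mipol1* was at 15.3 and 16.4 CPM (WT) and 7.46 and 8.02 CPM (*Arid1a* KO) with vehicle. With JSH-23, *Mipol1* was at 29.6 and 31.4 CPM (WT) and 28.5 and 29.3 CPM (*Arid1a* KO). It was the gene taken furthest past the WT vehicle level in *Arid1a* KO tumors, to 1.83 times, and the same level was reached in WT tumors (log2 fold change 0.95, SE 0.088, adjusted p = 4.33e-15). *2610318N02Rik*, a protein-coding gene by its annotation, was at 5.41 and 6.43 CPM in WT and 2.90 and 2.59 CPM in *Arid1a* KO vehicle samples. Under JSH-23, *2610318N02Rik* was at 4.27 and 5.12 CPM in WT and 5.27 and 4.92 CPM in *Arid1a* KO samples, with WT JSH-23 below WT vehicle samples without passing (log2 fold change -0.33, SE 0.18, adjusted p = 0.116).

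**Figure D5:**
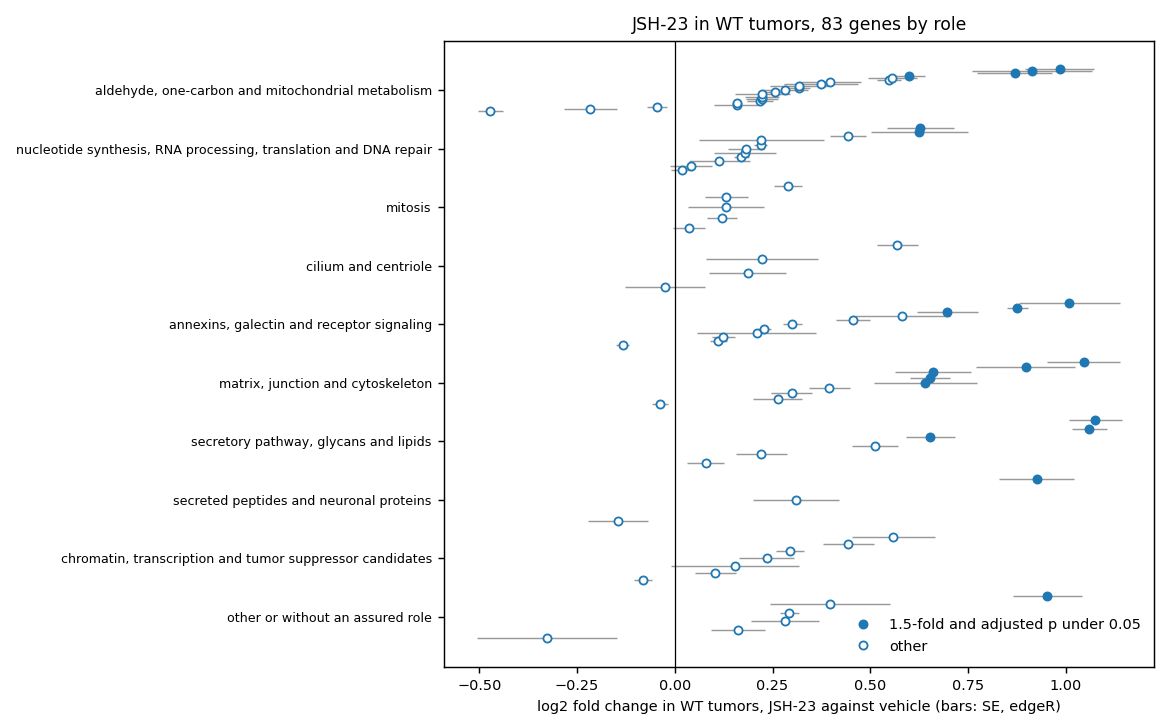
log2 fold change of JSH-23 against vehicle in WT tumors (horizontal axis, bars are SE) for 83 of the 84 genes, by role. Filled points are the 19 genes past 1.5-fold with adjusted p under 0.05. They fall in 7 of the 10 roles and in none of the mitotic, ciliary or chromatin genes.

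Few of the 84 genes belonged to the pathways on the gene lists. Of 32 lists, 11 held at least 1, and together they held 14. *Aldh1a1* and *Aldh1a7* were the only ones on a retinoid and aldehyde list of 22 tested genes, of which 3 fell and 3 rose in *Arid1a* KO vehicle tumors and 3 rose and 1 fell with JSH-23 in WT tumors. *Cbr3* was on an NRF2 and glutathione list of 35 tested genes, where 1 fell and 3 rose in *Arid1a* KO vehicle tumors, 11 rose and 3 fell with JSH-23 in *Arid1a* KO tumors and 8 rose and 1 fell in WT tumors (medians -0.20, 0.42 and 0.23). Over all 13921 genes tested, 5.16% were called lower and 7.48% higher in *Arid1a* KO vehicle tumors. With JSH-23, 9.1% rose and 16.9% fell in *Arid1a* KO tumors, and 5.55% rose and 10.2% fell in WT tumors. The list counts were not tested against these shares.

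Single genes were on 7 further lists. In *Arid1a* KO vehicle tumors, 5.16% of all genes tested were lower and 7.48% higher by the criterion. *Axl* was on the list of receptor tyrosine kinases (30 tested, 3 lower and 0 higher in *Arid1a* KO vehicle tumors), *Ltbp1* on that of TGF-beta and BMP signaling (33 tested, 4 lower and 3 higher), *Sema4g* on that of axon guidance (39 tested, 5 lower and 4 higher) and *St6galnac6* on that of glycosylation enzymes (46 tested, 4 lower and 2 higher). *Slc9a5* was among 224 solute carriers (14 lower and 16 higher), *Rasa4* among 68 regulators of small GTPases (5 lower and 6 higher) and *Zfp771* among 365 zinc finger genes (18 lower and 16 higher).

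The 84 genes were shorter than the rest, and their base composition was similar. The length deposited with each gene had a median of 2882 bases for the 84 (quartiles 1936 and 4216). It was 3723 (2271 and 5986) for genes above 5 CPM and 4014 (2393 and 5980) for the 190 genes that did not return. Median GC content of the longest transcript, known for 80 of the 84 (95.2%), was 51.6% beside 49.8% for genes above 5 CPM and 52.1% for the 190. Chromosome 2 held 11 (13.1%, where it held 8.25% of tested genes) and chromosome 19 held 9 (10.7%, where it held 3.67%), among them *Gldc*, *Asrgl1*, *Rcl1*, *Fbxw4*, *Tkfc* and *Sema4g* besides the 3 neighbours. A total of 10 genes lay in 4 clusters with gaps under 200 kb, and the 4th, on chromosome 17 (40875482 to 40961990), held *Mmut* and *9130008F23Rik*.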

How the data were processed

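The data were RNA-seq libraries of sorted EpCAM+ CD45- tumor cells, 8 samples in all, 2 in each of 4 groups taken from the sample labels. According to the methods of the study, TopHat2 placed each read at its best match in GRCm38/mm10, and reads were counted by strand with HTSeq-count, while the submitters' processing notes name HISAT2, HTSeq and DESeq2; the aligner is therefore uncertain. The authors deposited whole-number counts per gene without normalization, and TPM values made from them. Best-match counting by symbol can move reads between near-identical genes, and TPM keeps no depth.

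CPM for the selection was the count over the column sum, without further scaling. The members and gene lists were chosen with earlier results of these data known. Counts were filtered with filterByExpr (13921 of 39089 genes, with all 84), scaled with TMM (0.949 to 1.03) and fitted over all 8 samples with edgeR 4.0.16 in R 4.3.3. The quasi-likelihood test, two-sided, was called at 1.5-fold and a Benjamini-Hochberg adjusted p under 0.05 over all genes tested. The common biological coefficient of variation was 1.61%. The pairs of samples differed by more than the sampling noise (chi-square per degree of freedom 1.46 to 1.57) and were kept separate. Total counts ran from 16401581 to 21972231. Alternatives were DESeq2 1.42.0, limma 3.58.1 on log2 TPM values with a pseudocount of 1 or 0.1, no scaling, other filters, coefficients of variation of 0.1 and 0.2, other thresholds, the replicate number as a block, only the groups compared, each sample left out, and other limits of the selection. The edgeR step was tested on simulated data.

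Genes were named by rule as the 8 with the highest WT vehicle mean CPM, the 8 with the deepest fall, the 8 with the largest called rise in WT tumors (no fall was called), those on a gene list and, by their ratio to the limit, the 5 on either side of the 1.5-fold limit. Others were chosen after their values had been seen. Of the 84 genes, 1 is counted but its own values are not reported here. Promoter windows came from RefSeq (GRCm38.p6), taking the window nearest to the deposited 5' end, and transcript sequences from GENCODE M21.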

Additional observations from a re-analysis of the deposited data

Results flagged for a closer look

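In the 8 genes named here both WT JSH-23 samples lay below both WT vehicle samples, while both *Arid1a* KO JSH-23 samples lay above both *Arid1a* KO vehicle samples. The rise in *Arid1a* KO tumors was fixed by the selection, and the difference between the genotypes was not tested. Their log2 fold changes in WT tumors were -0.47 for *Ppa1*, -0.33 for *2610318N02Rik*, -0.22 for *Car5b*, -0.15 for *Cck*, -0.13 for *Anxa1*, -0.08 for *Maged1*, -0.05 for *Gldc* and -0.04 for *Ltbp1*. Of these, *Ppa1*, *Car5b*, *Anxa1* and *Maged1* passed the adjusted p in WT tumors and none reached 1.5-fold.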

How the results depend on the processing

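Of the 84 genes, 19 rose in WT tumors with JSH-23, and the count was 17 to 22 with each sample left out, 13 and 18 with limma on log2(TPM + 1) and log2(TPM + 0.1), and 8 when the biological coefficient of variation was set to 0.2, where the fit had 1.61%. It was 61 with adjusted p alone, where 4 fell. The 7 genes below WT in *Arid1a* KO tumors with JSH-23 were 5 to 8 with each sample left out, 14 with either limma fit and 0 with a coefficient of variation of 0.2. With adjusted p alone 47 were lower and 10 higher. The median log2 fold change of 0.27 in WT tumors was 0.26 with at least 10 counts in every sample, 0.23 with either limma fit and 0.27 to 0.30 with each sample left out. The selection gave 6 genes with a 2-fold fall, 50 with a return to the full WT vehicle mean and 83 to 118 with each sample left out. *Ccnb1* in WT tumors was at -0.00 with limma on log2(TPM + 1). The causes were not tested, beyond that stricter limits select fewer genes.

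The replicate numbers shared by the labels did not pair the samples (correlations of the pairs' deviations between -0.011 and 0.024). With the replicate number as a block the counts were 19 higher in WT tumors and 6 below WT in *Arid1a* KO tumors with JSH-23. Groups of 2 samples whose origin is not stated limit the precision.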
